A study of Homo sapiens with 4 samples.

Results

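The splice forms of 10 apoptosis regulators were examined in U87MG cells, a human line labelled as likely glioblastoma, that had received either the RBFOX decoy oligonucleotide RBFOXi or the scrambled oligonucleotide SCRM. The genes were BCL2L1, MCL1, BCL2L11, BAX, FAS, CFLAR, CASP8, CASP2, CASP9 and APAF1. Every event that the deposited tables list under one of these symbols was taken, whatever its value, which gave 89 of 121269 events. Of the 89 events, 58 were skipped exons, 18 were pairs of mutually exclusive exons, 6 were alternative 3′ splice sites, 6 were alternative 5′ splice sites and 1 was a retained intron. CASP8 had 26 events, BCL2L11 16, CFLAR 11, BAX 10, FAS 10, CASP9 5, APAF1 4, BCL2L1 3, CASP2 3 and MCL1 1.

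RNA-seq was performed on 2 libraries per group, described in the study as independent biological replicates. RBFOXi is a 2′-O-methyl RNA carrying tandem copies of the UGCAUG motif bound by the splicing factors RBFOX1 and RBFOX2, and SCRM served as its control. All 4 cultures received 2.5 µM oligonucleotide by lipofection, and only the oligonucleotide of RBFOXi replicate 1 carried a Cy5 dye. The sample titles give both replicate 1 libraries one suffix and both replicate 2 libraries another, with no meaning stated.

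Apoptosis is executed by caspases, proteases that are activated either at death receptors on the cell surface or by the apoptosome after the mitochondrial outer membrane opens. Many genes of both routes make pairs of proteins with opposite activity by alternative splicing. Best known are the long and short forms of BCL-X, the membrane and soluble forms of FAS, and the full-length and truncated forms of caspase-2, caspase-8 and caspase-9. RBFOX proteins typically promote inclusion of an exon when they bind the intron downstream of it and repress it when they bind upstream.

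The measure used is PSI, the share of the inclusion form among the forms that an event compares. It was computed from inclusion and skipping counts each divided by its effective length. PSI is a ratio within an event, so the same exon can have different values in different events. The alternative regions that separate the best known forms are shown here from the hg19 genome (GRCh37), 5′ to 3′ on the coding strand, since these are the sequences whose inclusion was measured. In the pair of BCL2L1 splice sites, at chr20:30309443-30309472 for the long form and chr20:30309632-30309661 for the short form on the minus strand, capitals mark the first bases of each intron.

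BCL2L1 long form (xL) splice site: gagaacggcggctggGTaagaaccaagccc
BCL2L1 short form (xS) splice site: cagagctttgaacagGTagtgaatgaactc

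In the next sequences capitals mark the alternative region and lower case the 10 neighbouring bases on each side. They are FAS exon 6 at chr10:90770510-90770572, the CASP8 linker exon of 45 nt at chr2:202137621-202137665, the CASP8 long-form insert of 136 nt at chr2:202141692-202141827, the CASP2 cassette exon of 61 nt at chr7:142997473-142997533 and the BCL2L11 L-form exon of 90 nt at chr2:111881627-111881716, all on the plus strand.

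FAS exon 6: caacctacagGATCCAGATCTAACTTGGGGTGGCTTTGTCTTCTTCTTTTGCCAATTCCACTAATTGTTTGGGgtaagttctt
CASP8 linker exon: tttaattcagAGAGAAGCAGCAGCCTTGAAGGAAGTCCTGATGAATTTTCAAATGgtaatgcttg
CASP8 long-form insert: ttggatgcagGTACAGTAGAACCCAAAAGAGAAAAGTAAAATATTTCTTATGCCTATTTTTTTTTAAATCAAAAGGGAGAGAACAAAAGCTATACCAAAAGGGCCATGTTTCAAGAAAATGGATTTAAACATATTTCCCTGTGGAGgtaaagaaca
CASP2 cassette exon: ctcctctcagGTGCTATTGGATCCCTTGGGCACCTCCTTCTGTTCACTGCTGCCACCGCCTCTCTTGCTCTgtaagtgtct
BCL2L11 L-form exon: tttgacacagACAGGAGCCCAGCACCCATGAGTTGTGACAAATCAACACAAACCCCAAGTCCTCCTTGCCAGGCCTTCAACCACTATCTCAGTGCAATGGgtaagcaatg

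The FAS exon, the CASP8 linker exon and the BCL2L11 exon are whole numbers of codons long, so skipping them keeps the reading frame, whereas the CASP2 exon and the CASP8 insert are not. In GENCODE v44lift37 the FAS, BCL2L11 and CASP8 linker exons lie in coding sequence. The CASP8 insert is part of 1 transcript, classed as subject to nonsense-mediated decay, and the CASP2 exon is in 2 transcripts without an annotated coding sequence there.

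SCRM replicate 1 stood apart from the other 3 libraries. Over 9370 genes with a mean of at least 200 skipped-exon counts, the log2 ratio of counts scaled to the library total (CPM) between the SCRM libraries had an SD of 1.19, against 0.41 between the RBFOXi libraries, and 1311 genes differed by more than 4-fold between the SCRM libraries against 31 between the RBFOXi libraries. Spearman's rho across these genes was 0.858 to 0.919 for SCRM replicate 1 with each other library and 0.978 to 0.986 among the other 3, with genes not being independent replicates. The cause was not tested. Library totals over skipped-exon events were 114415530 to 136097319 counts, lowest in SCRM replicate 1. Of the markers of the line, VIM, CD44, TNC and NES had events with counts in every library, as did the epithelial keratin KRT8, while GFAP, PTPRC, EPCAM, SYN1 and PECAM1 had no skipped-exon event and so could not be read. RBFOX2 had 56.0 and 61.8 CPM in the RBFOXi libraries and 17.2 and 86.2 in SCRM replicates 1 and 2, and RBFOX1 had no skipped-exon event.

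The same library stood apart in 7 of the 10 genes. Summed over skipped-exon events, MCL1 had 49.6 and 58.9 CPM in the RBFOXi libraries and 11.6 and 67.3 in SCRM replicates 1 and 2. CASP2 had 11.5 and 15.0 against 2.84 and 20.7, and APAF1 had 1.13 and 1.37 against 0.157 and 2.88. SCRM replicate 1 was therefore the lowest library for these genes, and likewise for BCL2L11, FAS and CASP8, in which SCRM replicate 2 held 2.56 to 3.44 times as many CPM. For BAX it was the highest, with 254.0 CPM against 113 to 148 in the others, while CFLAR lay between 59.1 and 61.8 and CASP9 between 3.07 and 3.48 in every library, and BCL2L1 had 24.2 to 28.2 with RBFOXi and less, but nearly the same, in both SCRM libraries (19.4 in replicate 1). These sums count each event that contains a read and are not expression levels, and in bulk RNA fewer expressing cells and less RNA per cell cannot be told apart.

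**Figure D1:**
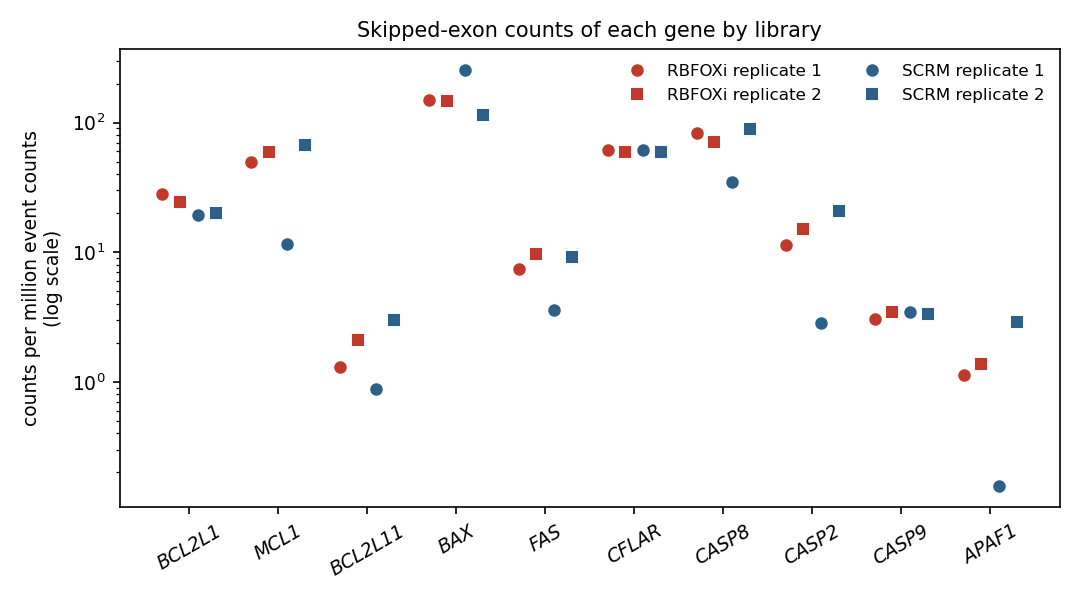
Counts of each gene summed over its skipped-exon events, in CPM of the library's event counts, on a log axis, for the 10 genes in the 4 libraries. SCRM replicate 1 lies lowest for MCL1, BCL2L11, FAS, CASP8, CASP2 and APAF1 and highest for BAX.

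To ask whether RBFOXi shifted these splice forms, events were kept if no library had under 5 counts, the mean was 20 or more and each form had 4 or more, and limma then compared the groups on a log2 odds scale over all events of a type. Of the 89 events 57 were tested, in 9 of the 10 genes, and none was called at an adjusted p under 0.05 with a delta PSI (RBFOXi minus SCRM) of at least 0.1 in size, against a background of 0.0638% over all tested events. Adjusted p-values by limma ran from 0.995 to 1.00. The same fits called 44 of 39615 skipped exons (0.111%), 2 of 26176 mutually exclusive pairs (0.00764%) and none of the other types over all genes. At an unadjusted limma p under 0.05 there were 4 member events of 57 against 2.65% of all tested events, and the quasi-binomial F test also called none of the 57. By type these were 1 of 30 skipped exons (background 3.4%), 2 of 17 mutually exclusive pairs (background 1.44%), 1 of 5 alternative 3′ splice sites (background 3.22%), 0 of 4 alternative 5′ splice sites (background 3.42%) and 0 of 1 retained intron (background 1.55%). Among the 4 member events, the CASP8 skipped exon and the CASP8 pair contain the same linker exon. They share reads and are not separate observations. An exact permutation test of 2 libraries against 2 cannot give a p below 0.333, so none is given for single events. The limma p-values set each difference against the spread between replicates, moderated towards a trend over all events of the type.

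The median size of delta PSI was 0.0138 over the 57 events and 0.0125 over all 72115 tested events. Within groups the median difference was 0.0178 between the RBFOXi libraries and 0.0368 between the SCRM libraries for the 57 events, against 0.0147 and 0.0222 over all tested events. Delta PSI is a difference of means of 2 libraries, which varies less than a difference of single libraries, so the sizes are given side by side and not compared. The groups did not overlap in 16 of the 57 events, 8 lower and 8 higher with RBFOXi, which is 28.1% against a background of 28.4%. Delta PSI reached 0.1 in size in 7 of the 57 tested events, against 3318 of all 72115. Of these 7, 5 were in BCL2L11 and 2 in CASP8, and the events within each gene share reads. Of the 32 events not tested, 8 had too few counts and 24 had fewer than 4 counts of one form, 23 of these with a mean PSI above 0.95.

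**Figure D2:**
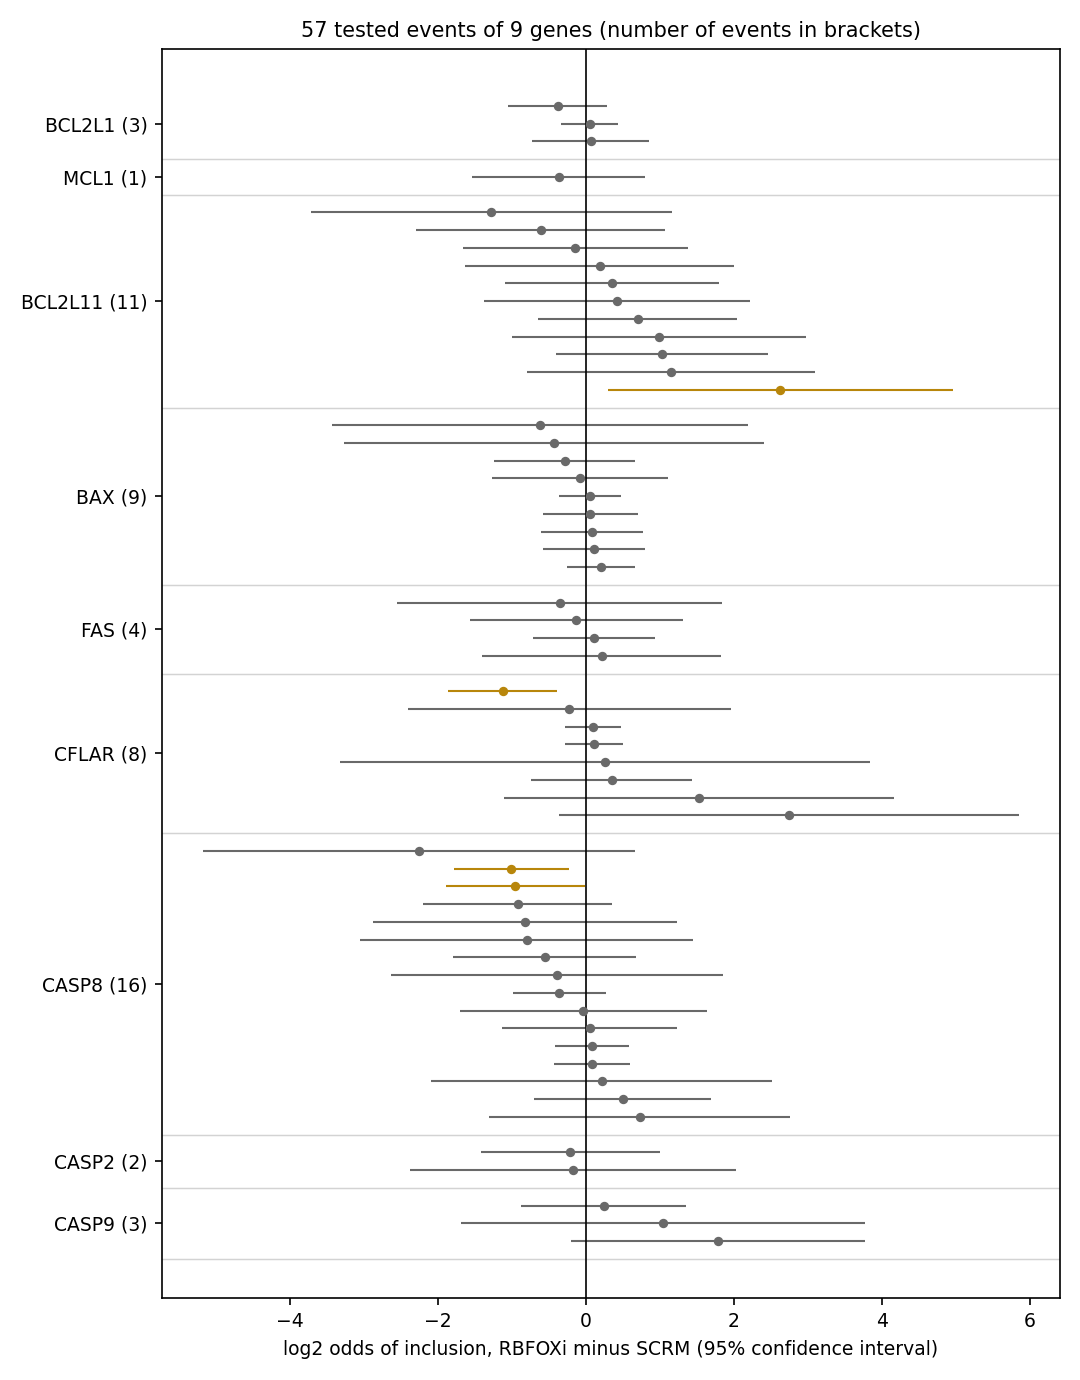
Difference in log2 odds of inclusion, RBFOXi minus SCRM, with its 95% confidence interval from limma, for the 57 tested events grouped by gene (number of events in brackets). The 4 events in gold, 2 in CASP8 and 1 each in BCL2L11 and CFLAR, have unadjusted p under 0.05, and all other intervals include 0. The CASP8 events in gold share reads.

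Among the guardians of the mitochondrial membrane, the long form of BCL2L1 dominated in every library. Choice between the splice sites shown above, which lie 189 nt apart in the first coding exon, decides between BCL-xL, which blocks apoptosis, and BCL-xS, which promotes it. PSI of the long form was 0.848 and 0.874 in the RBFOXi libraries and 0.850 and 0.921 in SCRM replicates 1 and 2, from 4426 to 7024 counts per library. SCRM replicate 2 alone was high, and the groups overlapped. The means were 0.861 ± 0.0185 (SD, n = 2) and 0.885 ± 0.0504 (SD, n = 2), and delta PSI was -0.0246 with a log2 odds difference of -0.38 ± 0.30 (SE, limma, adjusted p = 0.995). Without SCRM replicate 1 delta PSI was -0.0602 (limma, adjusted p = 0.994), and without SCRM replicate 2 it was 0.0111. The 95% confidence interval of the log2 odds difference was -1.05 to 0.28. Added to the mean SCRM log2 odds, taken as fixed, it corresponds to a PSI with RBFOXi between 0.796 and 0.908. Later PSI ranges from a confidence interval were found the same way. An 18 nt extension of the 5′ end of the same exon, which GENCODE places outside the coding sequence (chr20:30310134-30310151), had a PSI of 0.537 and 0.609 against 0.563 and 0.568, so that the SCRM values lay inside the range of the RBFOXi values.

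MCL1 exon 2 (248 nt, chr1:150550720-150550967) was almost always included. Its loss gives MCL1-S, a short form that lacks the membrane anchor and opposes the full-length protein. PSI was 0.976 and 0.990 with RBFOXi and 0.989 and 0.989 with SCRM, from 1332 to 9102 counts, with delta PSI -0.00544 and overlapping groups. The confidence interval allowed a PSI with RBFOXi between 0.966 and 0.993, although SCRM replicate 1 held only 4 skipping counts.

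BCL2L11 encodes BIM, a BH3-only killer protein whose EL, L and S forms differ in how much of exon 2 they keep. Retention of the 180 nt intron inside that exon (chr2:111881447-111881626) gives the EL form in place of L. Its PSI was 0.261 and 0.442 with RBFOXi and 0.206 and 0.452 with SCRM, from 16 to 59 counts per library. Both replicate 1 libraries were low and both replicate 2 libraries high, so the groups overlapped and delta PSI was 0.0226. It was -0.1000 without SCRM replicate 1 and 0.145 without SCRM replicate 2. The L-form exon of 90 nt, whose loss gives the S form, had a PSI of 0.943 and 0.792 with RBFOXi and 0.806 and 0.757 with SCRM, with delta PSI 0.0863 (limma, adjusted p = 1.00). RBFOXi replicate 1 alone was high, on 1 skipping count. The EL form against the S form, a 270 nt difference at alternative 5′ splice sites, gave 0.898 and 0.737 with RBFOXi and 0.638 and 0.694 with SCRM. Here the groups did not overlap, but skipping counts were only 1 to 9 per library, and delta PSI was 0.152 with a log2 odds difference of 1.15 ± 0.88 (SE, limma, adjusted p = 0.995).

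Downstream in BCL2L11, exon 3 (104 nt, chr2:111907621-111907724) had a PSI of 0.910 and 0.738 with RBFOXi and 1 and 0.900 with SCRM, with delta PSI -0.126 and overlapping groups. At 0 skipping counts of 14 in SCRM replicate 1, this library cannot show a small skipped fraction. Set against the 125 nt exon that follows it and that GENCODE has only in transcripts subject to nonsense-mediated decay (chr2:111911357-111911481), exon 3 took a PSI of 1 and 0.868 with RBFOXi and 0.692 and 0.787 with SCRM. Both RBFOXi libraries were higher, with delta PSI 0.195, the largest of the 57, and a log2 odds difference of 2.63 ± 1.05 (SE, limma, adjusted p = 1.00). The counts in this event were 21 to 73 per library, and RBFOXi replicate 1 had none for the 125 nt exon there. Another event has exon 3 as the exon before the 125 nt exon. In it the 125 nt exon had 3 and 16 inclusion counts with RBFOXi and 9 and 26 with SCRM. Both exons can thus be in the same transcript, and PSI of the pair is not a choice between them. Without SCRM replicate 1 delta PSI of the pair was 0.147. As a skipped exon, exon 3 had a delta PSI of the opposite sign, -0.126, from the same exon 3 inclusion counts. The pair of exons 2 and 3 listed as mutually exclusive ran 0.720 and 0.666 against 0.486 and 0.668, with SCRM replicate 1 alone low and delta PSI 0.0252 without it. The 11 tested BCL2L11 events draw on overlapping reads and are not separate observations.

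BAX, the pore-forming effector, held exons 2, 3 and 4 in most reads. PSI of exon 4 (136 nt, chr19:49459455-49459590) was 0.999 to 1 in every library, from at least 2549 counts. Exon 2 (52 nt, chr19:49458805-49458856) gave 0.969 and 0.949 with RBFOXi and 0.964 and 0.970 with SCRM, and exon 3 (147 nt, chr19:49458944-49459090) gave 0.918 and 0.903 against 0.916 and 0.895. The groups overlapped for all 3 exons, and delta PSI was -0.000300, -0.00820 and 0.00509 for exons 4, 2 and 3. For exon 3 the confidence interval allowed a PSI with RBFOXi between 0.863 and 0.942. The exons 2 and 3 taken as a mutually exclusive pair gave 0.284 and 0.285 with RBFOXi and 0.249 and 0.308 with SCRM, although the annotation holds both in one transcript. Set against the junction that leaves out both exons 2 and 3, exon 2 was at 0.804 and 0.823 with RBFOXi and 0.768 and 0.832 with SCRM, and exon 3 at 0.912 and 0.921 against 0.909 and 0.918. In SCRM replicate 1, where BAX had its highest CPM, the pair and both of these values were the lowest of the 4 libraries. They share counts and are not separate observations. In the events of exons 2 and 3 given first, SCRM replicate 1 was not the lowest library, and for exon 4 it was, at 0.999.

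**Figure D3:**
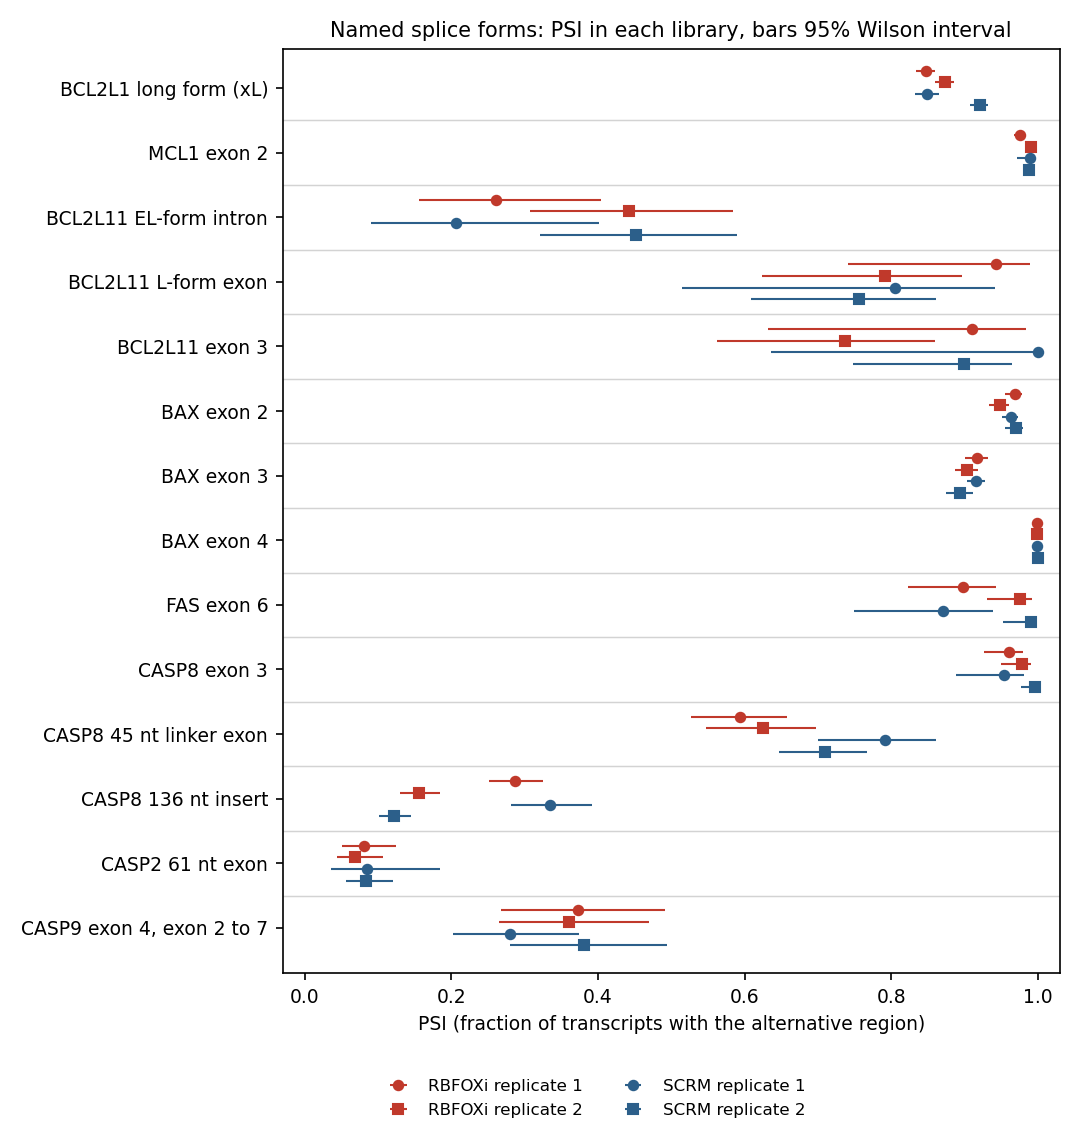
PSI of the known splice forms in each library, with points for the 4 libraries and bars for the 95% Wilson interval, which covers counting error only. Of the forms drawn, the groups do not overlap for the CASP8 linker exon (0.594 and 0.625 against 0.792 and 0.710) and, by less than the intervals, for the CASP2 exon. The libraries part by replicate number for the BCL2L1 long form and the BCL2L11 EL-form intron, L-form exon and exon 3. They do so too for BAX exon 3, FAS exon 6, CASP8 exon 3 and the CASP8 insert. The BCL2L11 forms share reads, and the share of all tested events that part this way was not computed. Over all tested events, deviations of like-numbered libraries had a correlation of 0.0836 to 0.118 by event type.

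At the death receptor, FAS exon 6 encodes the membrane-spanning segment, and its skipping gives soluble FAS, a decoy for the ligand. PSI of exon 6 was 0.897 and 0.976 with RBFOXi and 0.871 and 0.991 with SCRM, from 70 to 193 counts. Both replicate 1 libraries were low and both replicate 2 libraries high, and delta PSI was 0.00537 (limma, adjusted p = 1.00), with a log2 odds difference of the opposite sign, -0.36 ± 1.06 (SE). It was -0.0547 without SCRM replicate 1 and 0.0654 without SCRM replicate 2. The 95% Wilson interval of PSI was 0.750 to 0.938 in SCRM replicate 1, where 6 of 70 counts skipped the exon, and 0.952 to 0.998 in SCRM replicate 2, where 1 of 179 did. FAS exon 3 (138 nt, chr10:90767457-90767594), which encodes extracellular sequence, was at 0.926 and 0.942 against 0.908 and 0.943. The 83 nt and 25 nt exons behind exon 6, which precede the death domain, gave 0.301 and 0.336 against 0.287 and 0.321 as a pair, with overlapping groups.

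CFLAR encodes c-FLIP, which competes with caspase-8 at the receptor complex. The last exon of its short form (chr2:202006097-202006321 in GENCODE) was in 0 of the events, so the long and short forms could not be compared. The event of the 57 with the smallest p was an alternative acceptor before the last exon of the long form (chr2:202027719-202028557), where use of the upstream site adds 839 nt that no GENCODE transcript holds whole. PSI of the longer form was 0.0952 and 0.0894 with RBFOXi and 0.249 and 0.131 with SCRM replicates 1 and 2, from 104 to 374 counts. Both RBFOXi libraries were lower, and SCRM replicate 1 was above the other 3. The means were 0.0923 ± 0.00414 and 0.190 ± 0.0838 (SD, n = 2), delta PSI was -0.0980 and the log2 odds difference -1.13 ± 0.35 (SE, limma, adjusted p = 0.999). Without SCRM replicate 1 delta PSI was -0.0387 (limma, adjusted p = 0.998), and without SCRM replicate 2 it was -0.157 and was called (limma, adjusted p = 0.0166), so the size of this difference rested on SCRM replicate 1. RBFOXi minus SCRM was -0.154 between the replicate 1 libraries and -0.0416 between the replicate 2 libraries. At the start of the coding region, exons 2 and 3 taken as a pair gave 0.683 and 0.689 with RBFOXi and 0.660 and 0.684 with SCRM, from at least 3150 counts, with delta PSI 0.0138 and overlapping groups.

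CASP8 encodes the initiator protease of the receptor route and had the skipped-exon event with the smallest p of the 30 tested. The 45 nt linker exon between the death effector domains and the protease part, exon 5 of the canonical transcript, separates the a form of procaspase-8 from the b form. Its PSI, between the exon before it and the 65 nt exon after it, was 0.594 and 0.625 with RBFOXi and 0.792 and 0.710 with SCRM, from 87 to 210 counts. Both RBFOXi libraries were lower than both SCRM libraries. The means were 0.610 ± 0.0222 and 0.751 ± 0.0574 (SD, n = 2), delta PSI was -0.141 and the log2 odds difference -0.95 ± 0.45 (SE, limma, adjusted p = 1.00), so the difference did not pass the correction over 39615 skipped-exon events. Delta PSI was -0.101 without SCRM replicate 1, -0.182 without SCRM replicate 2, -0.126 without RBFOXi replicate 1 and -0.157 without RBFOXi replicate 2. RBFOXi minus SCRM was -0.198 between the replicate 1 libraries and -0.0851 between the replicate 2 libraries. The 95% confidence interval corresponds to a PSI with RBFOXi between 0.449 and 0.749.

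Other events that contain the linker exon gave lower means with RBFOXi too, but they share its reads. Against the skip to the exon of 142 nt, PSI was 0.846 and 0.778 with RBFOXi and 0.863 and 0.921 with SCRM, without overlap and with delta PSI -0.0798. Against the skip to an exon further downstream, it was 0.973 and 0.960 against 0.966 and 0.992, with overlap. The linker exon and the 65 nt exon are also listed in 2 events as a mutually exclusive pair, with different exons after them. The annotation holds both in the canonical transcript, as exons 5 and 6. PSI of the pair therefore compares reads on exons that can be included together, and is not a choice between them. Where the exon of 142 nt follows, PSI was 0.216 and 0.173 with RBFOXi and 0.255 and 0.218 with SCRM. In the other pair the linker exon took 0.607 and 0.600 with RBFOXi and 0.784 and 0.725 with SCRM. That difference, delta PSI -0.151 with a log2 odds difference of -1.01 ± 0.35 (SE, limma, adjusted p = 1.00), was -0.121 without SCRM replicate 1. Without SCRM replicate 2 it was -0.181 and was called (limma, adjusted p = 0.0432), in a fit in which calls over all mutually exclusive pairs rose from 2 to 1331.

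The 136 nt insert that makes caspase-8L, a truncated form reported to lack the protease part, had the largest differences between replicates among the tested CASP8 events. Its PSI was 0.286 and 0.156 with RBFOXi and 0.334 and 0.121 with SCRM, from 248 to 471 counts. Both replicate 1 libraries were above both replicate 2 libraries, and the 95% Wilson intervals of replicate 1 (0.251 to 0.325 with RBFOXi, 0.281 to 0.392 with SCRM) lay above those of replicate 2 (0.131 to 0.185 and 0.101 to 0.146). Delta PSI was -0.00674, with a log2 odds difference of 0.05 ± 0.53 (SE, limma, adjusted p = 0.995). It was 0.0997 without SCRM replicate 1 and -0.113 without SCRM replicate 2, so its direction depended on which library was left out. In the prodomain, exon 3 (106 nt, chr2:202136239-202136344) was at 0.961 and 0.978 with RBFOXi and 0.954 and 0.996 with SCRM, and exons 2 and 3 as a pair gave 0.533 and 0.490 against 0.467 and 0.529. A 26 nt extension of the upstream end of exon 2 (chr2:202131184-202131209) was at 0.878 and 0.864 with RBFOXi and 0.831 and 0.829 with SCRM, without overlap, with delta PSI 0.0411 and a log2 odds difference of 0.49 ± 0.57 (SE, limma, adjusted p = 0.999).

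CASP2, an initiator caspase with roles in the response to genotoxic stress, had a low PSI for its 61 nt cassette exon. Inclusion of that exon gives the short, antiapoptotic caspase-2S. PSI was 0.0809 and 0.0692 with RBFOXi and 0.0844 and 0.0830 with SCRM, from 48 to 244 counts. The groups did not overlap, but delta PSI was -0.00862, and the 95% Wilson interval in SCRM replicate 1 alone, 0.0363 to 0.184 on 5 inclusion counts, covered all 4 values. The log2 odds difference was -0.21 ± 0.59 (SE, limma, adjusted p = 1.00), which corresponds to a PSI with RBFOXi between 0.0345 and 0.161.

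For the apoptosome, CASP9 and APAF1 gave thinner data. The junction from exon 2 to exon 7 of CASP9 defines caspase-9S, which lacks the exons between and acts as an inhibitor. Exon 4 (177 nt, chr1:15833394-15833570) measured against that junction had a PSI of 0.373 and 0.361 with RBFOXi and 0.280 and 0.381 with SCRM, from 68 to 83 counts. SCRM replicate 1 alone was low, the groups overlapped, and delta PSI was 0.0357, or -0.0148 without SCRM replicate 1. As exon 4 is 1 of several exons that the junction passes over, this PSI compares the short form with reads on that exon and is not the level of the full-length form. An extension of 58 nt at the upstream end of exon 4 (chr1:15833571-15833628), found in GENCODE only in a transcript subject to nonsense-mediated decay, had a PSI of 0.0537 and 0.0788 with RBFOXi and 0.0125 and 0.0199 with SCRM. Both RBFOXi libraries were higher, on 4 and 14 counts against 1 and 2. The log2 odds difference was 1.78 ± 0.94 (SE, limma, adjusted p = 0.999).

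APAF1, the scaffold of the apoptosome, had 4 events, none of which could be tested. SCRM replicate 1 held 1 or 2 counts in 3 of them, and the fourth, an exon of 184 nt, had under 4 skipping counts in all. The 33 nt insert behind the caspase recruitment domain (chr12:99042561-99042593) was included in 14 of 15, 25 of 25, 1 of 1 and 49 of 49 counts in RBFOXi replicates 1 and 2 and SCRM replicates 1 and 2. The 129 nt exon of the WD repeats (chr12:99097149-99097277), exon 18 of the canonical transcript, was included in 31 of 32, 66 of 72, 1 of 2 and 97 of 104 counts. Inclusion was therefore the main form of both in the libraries with more than 2 counts, and no comparison was made.

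The RBFOX motif was then sought around the member exons, since RBFOXi carries it. UGCAUG was searched in the RNA strand only, as TGCATG in the genome, in the first 300 nt of the intron downstream of each exon. It was present for 3 of 22 tested member exons (13.64%) and for 8.36% of all 30617 tested exons, and in the last 300 nt of the upstream intron for 1 of 22 and 8.16%. Over the whole downstream intron it was present for 10 of 22 (45.45%) and for 49.86% of all. The tested exons with the motif nearby are the CASP8 linker exon, the CASP2 exon and the 125 nt BCL2L11 exon downstream, and MCL1 exon 2 upstream. Their 30-base surroundings are shown on the coding strand with the motif in capitals, at chr2:202137706-202137735, chr7:142997537-142997566, chr2:111911488-111911517 and chr1:150550970-150550999 (minus strand).

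CASP8 linker exon, downstream: ctatctggtaccTGCATGtgtcctccccac
CASP2 cassette exon, downstream: agtgtctcccaaTGCATGgggtgtgctggg
BCL2L11 125 nt exon, downstream: gcaaagtcccagTGCATGtcccctcttctc
MCL1 exon 2, upstream: gccgtgaggaccTGCATGcttttctttctc

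The motif began 53 nt behind the CASP8 exon, 16 nt behind the CASP2 exon, which has 5 copies in its intron, and 19 nt behind the BCL2L11 exon, and it began 20 nt before MCL1 exon 2. The 3 exons with a downstream motif all had lower PSI in both RBFOXi libraries than in both SCRM libraries, with delta PSI of -0.141, -0.00862 and -0.0946. Such a separation was seen in 16.9% of all tested exons and in 24% of the 2559 tested exons with the motif in that window. The BCL2L11 exon was at 0.208 and 0.350 with RBFOXi and 0.359 and 0.387 with SCRM on 8 to 44 counts, with a log2 odds difference of -0.61 ± 0.81 (SE, limma, adjusted p = 1.00). For the CASP2 and BCL2L11 exons the difference was smaller than the counting intervals of single libraries. MCL1 exon 2, with the motif upstream, had overlapping groups. A match to the motif is a description of the sequence, and its part in these values was not tested.

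**Figure D4:**
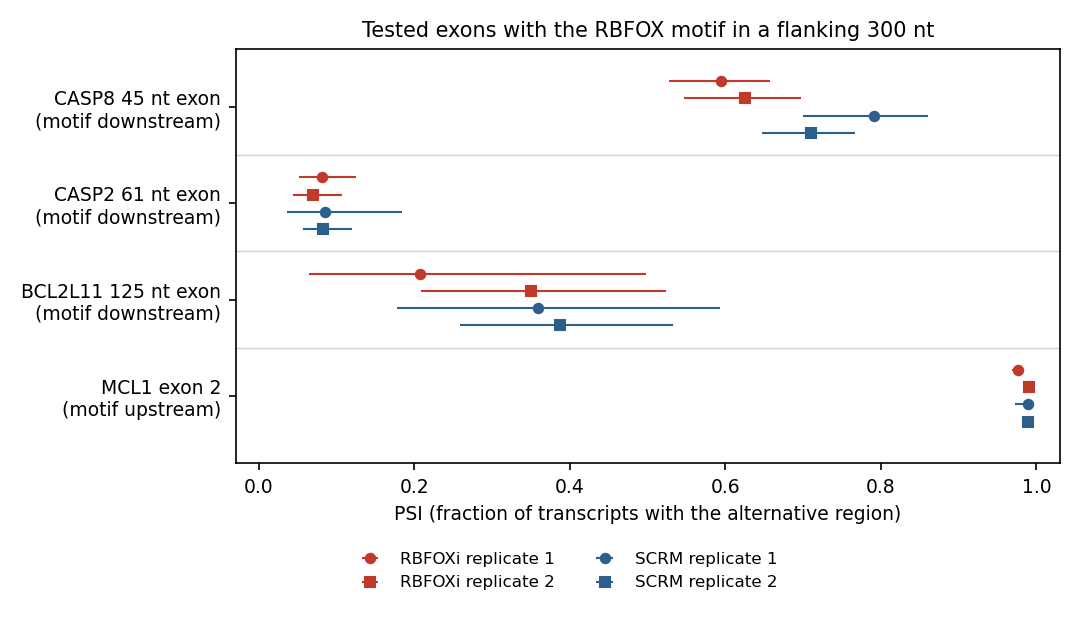
PSI in each library, with 95% Wilson intervals, for the 4 tested exons with TGCATG within 300 nt. RBFOXi values lie below SCRM values for the CASP8 exon, with a delta PSI of -0.141, and by less than the intervals for the CASP2 and BCL2L11 exons.

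Leaving out single libraries separated events of stable direction from the rest. Of the known forms and the events with the smallest p, the CASP8 linker exon, its pair with the 65 nt exon, the CFLAR acceptor, BCL2L11 exon 3 against the 125 nt exon and the CASP9 extension kept their direction whichever library was left out, as did the BCL2L11 L-form exon, exon 3 and EL against S forms and the CASP2 exon. Where groups do not overlap, this follows from the values themselves. The BCL2L1 long form, the BCL2L11 EL-form intron, FAS exon 6 and the CASP8 insert changed direction with the SCRM library that was left out. All of these but the BCL2L1 long form also changed direction with the RBFOXi library that was left out. MCL1 exon 2, BAX exons 2, 3 and 4, CASP8 exon 3 and CASP9 exon 4 changed direction for some left-out library as well.

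**Figure D5:**
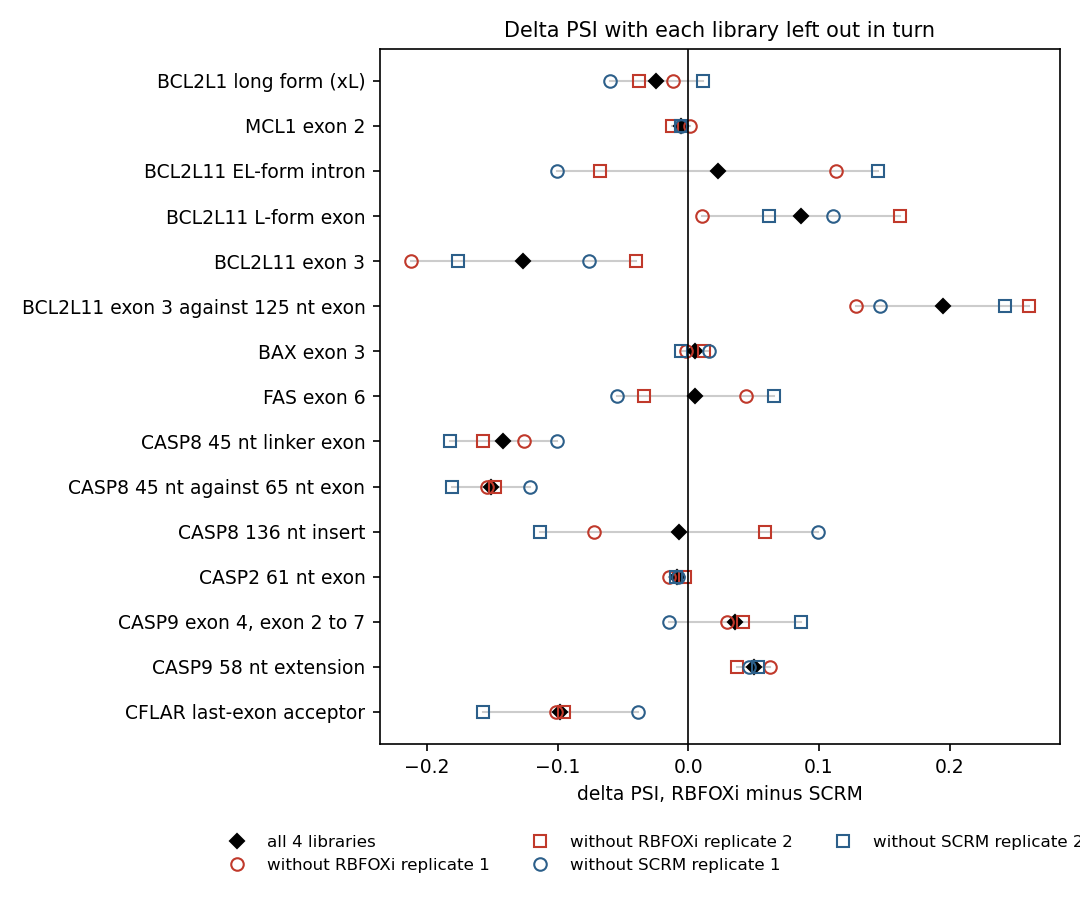
Delta PSI, RBFOXi minus SCRM, with all 4 libraries (diamonds) and with each library left out in turn (open symbols). The CASP8 linker exon stays between -0.182 and -0.101, while the CASP8 insert moves from -0.113 to 0.0997.

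Other genes of the pathway gave no call either. A further 65 gene symbols of the pathway were listed, among them the BCL-2 family, caspases, death receptors, adaptors and inhibitors of apoptosis. Of these symbols, 49 had events and 44 had 289 tested events, none called by limma. At an unadjusted p under 0.05 there were 5 of 289 (1.73%, background 2.65%), all with higher inclusion with RBFOXi, and the median size of delta PSI was 0.0134. The smallest p belonged to a 77 nt exon of CASP6, an executioner caspase (chr4:110617566-110617642), with PSI 0.983 and 1 with RBFOXi and 0.933 and 0.940 with SCRM. Both RBFOXi libraries were higher, with delta PSI 0.0554 and a log2 odds difference of 2.82 ± 1.02 (SE, limma, adjusted p = 1.00). The next were an exon pair of BCL2L13, a mitochondrial BCL-2 relative, with 0.110 and 0.0934 against 0.0511 and 0.0498, and a 315 nt exon of the ubiquitin ligase BIRC6, with 1 and 1 against 1 and 0.971, where SCRM replicate 1 had 10 counts.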

How the data were processed

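RNA-seq of 4 U87MG libraries was used. Per the labels and the study's methods, the authors placed paired reads of 100 bp on hg19 with the aligner STAR (version 2.4.2a), keeping unique hits, and ran rMATS with UCSC known genes. In the 5 deposited tables each event holds inclusion and skipping counts of reads on the target and its junctions, as comma pairs of the libraries of a group, and effective lengths. Other columns hold the authors' own comparison (p-values, FDR and inclusion level difference), which was not used. The 10 columns of the authors' inclusion levels per library were not used either.

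PSI was (inclusion counts/length)/((inclusion counts/length) + (skipping counts/length)). limma 3.58.1 (R 4.3.3) tested the log2 odds with a pseudocount of 0.5 and a variance trend on the information per event, over all events of a type, with Benjamini-Hochberg adjustment. Groups were taken from the transfection labels. The fit was tested on simulated data. Wilson intervals cover counting error only, since reads are not independent molecules. Reads inside exons count as inclusion, so pairs in the mutually exclusive table can be exons of 1 transcript.

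Named were events that match forms known by name, for each gene and type the tested event of mean PSI 0.05 to 0.95 with most counts, and the 5 tested events of smallest p. The 10 genes and the lists were chosen with earlier results of these data known. Sequences and annotation came from GRCh37 and GENCODE v44lift37, and the introns around tested exons began with GT in 98.72% and ended with AG in 99.98%. Alternatives covered pseudocount, filters, replicate block, delta PSI minimum, plain share, centring, 1 event per region, left-out libraries and motif windows. A quasi-binomial F test was added after seeing the data.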

Additional observations from a re-analysis of the deposited data

How the results depend on the processing

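None of the tested events of the 10 genes was called with any other pseudocount, filter, scaling, delta PSI minimum, 1 event per region, the replicate block or the quasi-binomial F test, nor without RBFOXi replicate 1, RBFOXi replicate 2 or SCRM replicate 1. Without SCRM replicate 2, 1 mutually exclusive pair (CASP8) and 1 alternative 3′ splice site (CFLAR) were called, so calls with 1 library left out ran from 0 to 1 for each of these types, and the lone control library was then assumed to vary like the others. Over all genes, the 44 called skipped exons became 18 with a pseudocount of 0.1, 133 with the replicate block and 13 to 61 with 1 library left out. The 2 called mutually exclusive pairs became 13 with the quasi-binomial F test, 56 with the replicate block, 8 with centred log2 odds, 1 with 1 event per region and 4 to 1331 with 1 library left out. Alternative 3′ splice sites rose from 0 to 2 calls with the replicate block and 0 to 5 with 1 library left out, and alternative 5′ splice sites, with 0 calls, had 1 by the quasi-binomial F test and 0 to 3 with 1 library left out. The cause of these moves was not tested. The replicate number gave a correlation of like-numbered deviations of 0.0836 to 0.118 by event type, and the labels state no shared batch, so the numbers were not taken as pairs. The median delta PSI of the 10 genes' alternative 3′ splice sites, 0.0347, was 0.0211 with the loosest filter and 0.00802 as a plain share of counts. With 1 library left out this median ran from 0.0256 to 0.0401, and it changed sign for skipped exons (-0.00849 to 0.00106), mutually exclusive pairs (-0.00869 to 0.0353) and alternative 5′ splice sites (-0.0363 to 0.0467). There was 1 retained intron and so no median.

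Among 27 named tested events, direction changed when 1 library was left out in several, with delta PSI then running from -0.0602 to 0.0111 for the BCL2L1 long form, -0.0285 to 0.0436 for its 18 nt extension, -0.0124 to 0.00154 for MCL1 exon 2, -0.1 to 0.145 for the BCL2L11 EL-form intron, -0.0185 to 0.00206, -0.00588 to 0.0161 and -0.000767 to 0.000168 for BAX exons 2, 3 and 4, -0.0234 to 0.0353 for the BAX exon pair, -0.0547 to 0.0654 for FAS exon 6, -0.00906 to 0.0263 for FAS exon 3, -0.00309 to 0.0322 for the FAS pair, -0.113 to 0.0997 for the CASP8 insert, -0.0178 to 0.0448 for CASP8 exons 2 and 3, -0.0262 to 0.016 for CASP8 exon 3 and -0.0148 to 0.0863 for CASP9 exon 4. The CASP8 insert was also at 0.00113 as a plain share of counts. With a motif window of 200 nt the number of tested member exons stayed at 3, and over the whole intron it was 10. Tests by edgeR and DESeq2 were planned and were not run. Counts limit BCL2L11, FAS, CASP9 and CASP2, where intervals on PSI span a wide range, and APAF1, where nothing was tested.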
